A study of Mus musculus with 2 samples.

Results

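The hemoglobin genes and the gene of the first enzyme of red cell heme synthesis were followed in single cells of newborn mouse lung. The members were chosen by name and are 8 of the 22444 genes counted in both libraries, namely *Hba-a1*, *Hba-a2* and *Hba-x* of the alpha-type globins, *Hbb-bs*, *Hbb-bt*, *Hbb-y* and *Hbb-bh1* of the beta-type globins, and *Alas2*. All 8 had counts in both libraries, and 7 of them passed the filter on low values for the comparison of cell classes, all but *Hba-x*. The libraries came from whole lungs of 2 female wild-type C57BL/6J mice at postnatal day 1, 1 mouse in Batch 1 and 1 in Batch 2, so there was 1 group with n = 2 and no treatment. Lobes of both sides were minced, digested with TrypLE and collagenase and treated with a red blood cell lysis buffer before cells were captured with barcoded beads in droplets (Drop-seq).

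Hemoglobin is a tetramer of alpha-type and beta-type chains, each holding a heme group, and red cell precursors make both chains and heme in amounts that match. In the mouse, red cells of the yolk sac use the embryonic genes *Hba-x*, *Hbb-y* and *Hbb-bh1*, and red cells made later in the fetal liver and the bone marrow use *Hba-a1*, *Hba-a2*, *Hbb-bs* and *Hbb-bt*. *Alas2* encodes the erythroid 5-aminolevulinate synthase, the rate-limiting first step of heme synthesis in red cell precursors, while *Alas1* encodes the form used in other tissues. Globin transcripts have also been described in some cells that carry no oxygen, among them endothelial cells and alveolar epithelial cells.

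The 3 alpha-type genes lie within 20.9 kb of chromosome 11 and the 4 beta-type genes within 40.7 kb of chromosome 7, and *Alas2* lies on the X chromosome at chrX:150547375-150570638 (GRCm38, the build of mm10). *Hba-x* lies at chr11:32276400-32278116, *Hba-a1* at chr11:32283511-32284465 and *Hba-a2* at chr11:32296489-32297298, all on the plus strand. *Hbb-bt* lies at chr7:103812524-103813996, *Hbb-bs* at chr7:103826534-103828096, *Hbb-bh1* at chr7:103841637-103843164 and *Hbb-y* at chr7:103851749-103853216, all on the minus strand.

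Reads of these libraries start near the 3′ end of a transcript, so the likeness of the genes there sets how far their counts can be told apart. The last 90 coding bases of each globin, all within the last exon, are shown 5′ to 3′ from the GENCODE transcripts, with capitals where a base differs from *Hba-a1* (alpha type) or *Hbb-bs* (beta type).
Hba-a1 (chr11:32284302-32284391, plus strand): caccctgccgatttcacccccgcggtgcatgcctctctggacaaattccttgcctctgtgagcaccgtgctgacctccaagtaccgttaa
Hba-a2 (chr11:32297119-32297208, plus strand): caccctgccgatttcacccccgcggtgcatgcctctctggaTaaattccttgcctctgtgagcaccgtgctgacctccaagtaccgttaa
Hba-x (chr11:32277919-32278008, plus strand): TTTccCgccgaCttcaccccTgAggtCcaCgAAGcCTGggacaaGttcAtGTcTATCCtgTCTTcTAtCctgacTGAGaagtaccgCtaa
Hbb-bs (chr7:103826665-103826754, minus strand): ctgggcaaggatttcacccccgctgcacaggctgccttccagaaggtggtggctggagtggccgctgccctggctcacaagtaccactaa
Hbb-bt (chr7:103812656-103812745, minus strand): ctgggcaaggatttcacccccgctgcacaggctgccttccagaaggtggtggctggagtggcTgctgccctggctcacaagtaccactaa
Hbb-y (chr7:103851874-103851963, minus strand): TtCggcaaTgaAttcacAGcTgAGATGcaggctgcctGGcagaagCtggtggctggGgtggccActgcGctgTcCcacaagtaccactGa
Hbb-bh1 (chr7:103841752-103841841, minus strand): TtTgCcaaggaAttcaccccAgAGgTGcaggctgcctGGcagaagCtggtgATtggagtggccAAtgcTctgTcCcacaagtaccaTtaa
Over the whole coding sequence of 429 bases, *Hba-a1* and *Hba-a2* differed at 1 base, and over 444 bases *Hbb-bs* and *Hbb-bt* also differed at 1 base. The embryonic genes were less alike, with 163 differing bases between *Hba-a1* and *Hba-x*, 114 between *Hbb-bs* and *Hbb-y* and 115 between *Hbb-bs* and *Hbb-bh1*. Among the 50-base windows of the last 300 bases of *Hba-a1*, 80.1% also occurred in *Hba-a2*, against 36.7% of those of *Hbb-bs* in *Hbb-bt*, and none of the *Hba-a1* or *Hbb-bs* windows occurred in an embryonic gene of their own type. The counts of *Hba-a1* and *Hba-a2* are therefore uncertain one against the other, and those of *Hbb-bs* and *Hbb-bt* in part, while embryonic counts are separable at this window length.

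The 120 bases before the start site are shown from the RefSeq promoters of GRCm38.p6. Apart from *Hba-x*, these genes were higher in cells with red cell marker genes than in the other cell classes, *Hbb-y* with at most 3 UMIs in such a cell. Capitals mark CACCC on either strand, CCAAT on either strand, TATAA on the strand shown, and the letters bound by GATA factors on either strand, which are GATA with A or T before it and A or G after it.
Hba-a1 (chr11:32283552-32283671, plus strand): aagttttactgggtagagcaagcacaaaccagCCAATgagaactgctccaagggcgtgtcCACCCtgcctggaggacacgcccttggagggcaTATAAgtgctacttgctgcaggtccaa
Hba-x (chr11:32276480-32276599, plus strand): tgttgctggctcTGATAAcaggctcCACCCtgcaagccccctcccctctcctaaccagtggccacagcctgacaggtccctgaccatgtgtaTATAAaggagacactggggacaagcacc
Hbb-bs (chr7:103827929-103828048, minus strand): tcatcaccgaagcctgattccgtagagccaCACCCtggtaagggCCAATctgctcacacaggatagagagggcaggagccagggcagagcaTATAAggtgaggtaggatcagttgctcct
Hbb-bt (chr7:103813924-103814043, minus strand): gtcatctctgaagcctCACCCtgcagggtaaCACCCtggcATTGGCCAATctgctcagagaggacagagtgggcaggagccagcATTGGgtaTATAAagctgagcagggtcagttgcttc
Hbb-y (chr7:103853208-103853327, minus strand): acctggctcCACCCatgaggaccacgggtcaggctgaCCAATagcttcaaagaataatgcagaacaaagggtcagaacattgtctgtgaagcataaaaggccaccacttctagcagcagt
Alas2 (chrX:150547297-150547416, plus strand): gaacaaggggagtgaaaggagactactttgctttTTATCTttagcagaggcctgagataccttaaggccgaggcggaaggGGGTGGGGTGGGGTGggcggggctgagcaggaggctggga
The *Hba-a2* promoter (chr11:32296372-32296491) equals that of *Hba-a1* without a difference over 297 aligned bases, with a shift of 3 bases. CACCC was present in 7 of these 7 promoters, against 31.7% of 32851 promoters of the same length, and CCAAT in 5, against 21.3%. TATAA was present in 5, against 8.53%, and one of the GATA letters in 2, *Hba-x* and *Alas2*, against 12.8%. These are matches of letters within a window, and some annotated transcripts of these genes start further upstream.

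A count is the number of different unique molecular identifiers (UMIs) of a gene in a cell, and since it stands for 3′ ends it was not divided by gene length. Batch 1 held 4432553 UMIs in 2388 cells and Batch 2 18232639 UMIs in 5615 cells with at most 10% mitochondrial UMIs, and the libraries shared no cell barcode. The globins took 307467 UMIs in Batch 1, 6.94% of the library, and 274727 in Batch 2, 1.51%. *Hbb-bs*, *Hba-a1* and *Hba-a2* ranked 1, 2 and 3 among all genes of Batch 1 and *Hbb-bt* ranked 6, while in Batch 2 they ranked 5, 9, 10 and 12. The mice, the day of preparation and the libraries cannot be told apart between batches.

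Globin UMIs were present in every cell of Batch 1, with a median of 47 and a range of 4 to 5965 per cell. In Batch 2 they were absent from 69 cells (1.23%), and the median was 11, with a highest value of 7858. Most cells held a small share and a few a very large one. Cells with at least 20% of their UMIs from globins, a limit set after the values were seen, numbered 104 in Batch 1 and 58 in Batch 2 and held 59.7% and 67.0% of the globin UMIs. Between 10% and 20% there were 42 and 16 cells.

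**Figure D1:**
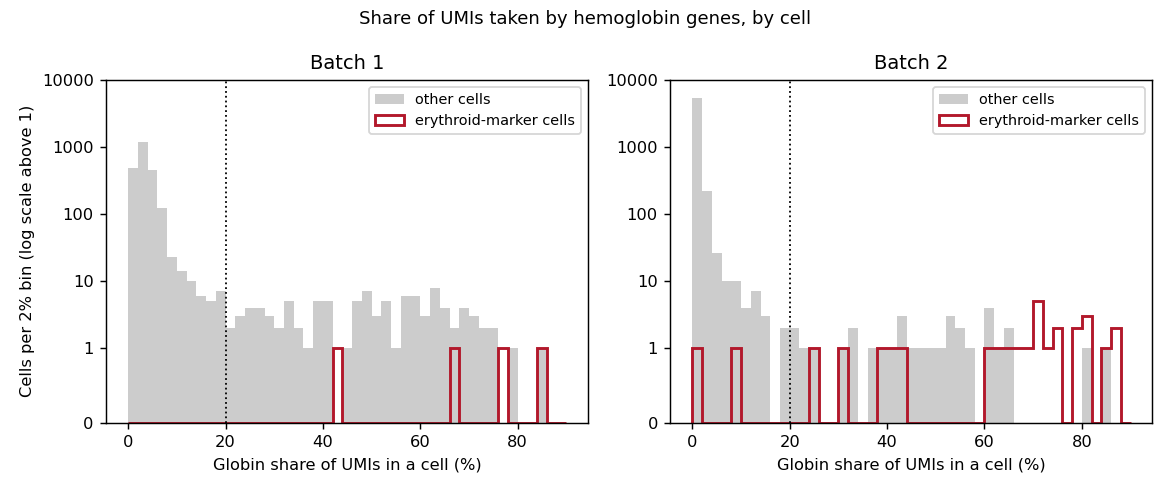
Histograms of the globin share of UMIs per cell (x axis, percent, 2% bins) against the number of cells (y axis, log scale above 1) in Batch 1 and Batch 2, with erythroid-marker cells outlined in red, other cells in grey and a dotted line at 20%. Most cells lie below 10%, 104 cells of Batch 1 and 58 of Batch 2 lie at or above 20%, and of the erythroid-marker cells 4 of 4 and 26 of 28 do.

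Erythroid cells were found without use of the members, as cells with UMIs of at least 3 different genes of a list of 16 red cell genes such as *Slc4a1* (band 3, the anion exchanger of the red cell membrane). There were 4 such cells in Batch 1 and 28 in Batch 2. Of the 16 listed genes, 13 had counts in Batch 1 and 14 in Batch 2. *Slc4a1* was detected in 4 of 4 and 26 of 28, and *Trim10* in 4 and 22. Just below the limit, 14 cells of Batch 1 and 11 of Batch 2 had 2 of the genes, with a median of 1270.5 and 410 globin UMIs, and exactly 3 genes were found in 0 and 6 cells. Markers of other classes were also present, since 2 of the 4 and 12 of the 28 cells had 4 or more of the 15 epithelial, endothelial, mesenchymal or immune marker genes of 1 class. Of 6 megakaryocyte genes, *Pf4*, *Ppbp*, *Gp9*, *Gp1bb* and *Gp6* were at 0 in these cells and *Itga2b* had 2 UMIs. The part of the lung markers in the values below was not tested, and no doublets were removed.

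The 4 erythroid-marker cells of Batch 1 held 2261, 3968, 4037 and 5560 globin UMIs, which is 42.8%, 66.7%, 77.0% and 84.1% of their UMIs. In Batch 2 the lowest, median and highest were 68, 4835.5 and 7858 globin UMIs, or 0.244%, 70.5% and 87.1%. The 2 lowest shares of Batch 2 stood apart. The cell with 68 globin UMIs carried 6 of the erythroid genes, 27920 UMIs, 4270 detected genes, 22 UMIs of *Mki67* (a marker of dividing cells) and 10 of *Tfrc*, and 0 UMIs of *Slc4a1* and *Alas2*, and the next had 185 globin UMIs and 7 epithelial markers. Erythroid-marker cells had a median of 858.5 detected genes in Batch 1, above the 788 of all other cells, and 639.5 in Batch 2, below the 1050 of all other cells.

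Each globin of the later type was at a similar level in these cells. *Hba-a1* was at 1714 UMIs per 10000 in Batch 1 and 1415 in Batch 2, *Hba-a2* at 1705 and 1406, *Hbb-bs* at 1819 and 1575 and *Hbb-bt* at 1614 and 1388. In all other cells *Hba-a1* was at 172 per 10000 in Batch 1 and 21.6 in Batch 2. Cells were then grouped into 5 classes by markers that hold no member, counts were summed by class and batch, and the erythroid-marker cells were compared with the mean of the other 4 classes by edgeR's quasi-likelihood test with the batch as a block. Of the 7 members tested 7 were higher, where 2.18% of the 11668 genes tested were called higher and 0.728% lower. A low gene can pass the filter through the class where it is high, so this count is a description. The fitted log2 fold changes were 5.65 ± 0.94 (SE) for *Hba-a1* (adjusted p = 1.39e-05), 5.67 ± 0.94 for *Hba-a2* (1.31e-05), 5.53 ± 0.95 for *Hbb-bs* (2.27e-05) and 5.86 ± 0.93 for *Hbb-bt* (4.19e-06). The center of all genes was not at 0 on this scale, since the median log2 fold change of all tested genes was -1.01, and -1.70 with library totals alone.

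Within the batches the difference had unequal size. On log2 CPM (CPM being 100 times the UMIs per 10000 of a class), with no test, the 4 genes were higher by 3.46 to 3.78 in Batch 1 and by 5.81 to 6.16 in Batch 2, where the other classes held fewer globin UMIs. In these comparisons the Batch 1 side rests on 4 cells. The called genes were 74.9% higher ones, but only 8.90% with library totals in place of TMM, where 2527 genes were called in place of 339, and the 7 members were called higher under both scalings. The p-values rest on 10 sums from 2 mice and measure how far class differences varied between these mice.

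**Figure D2:**
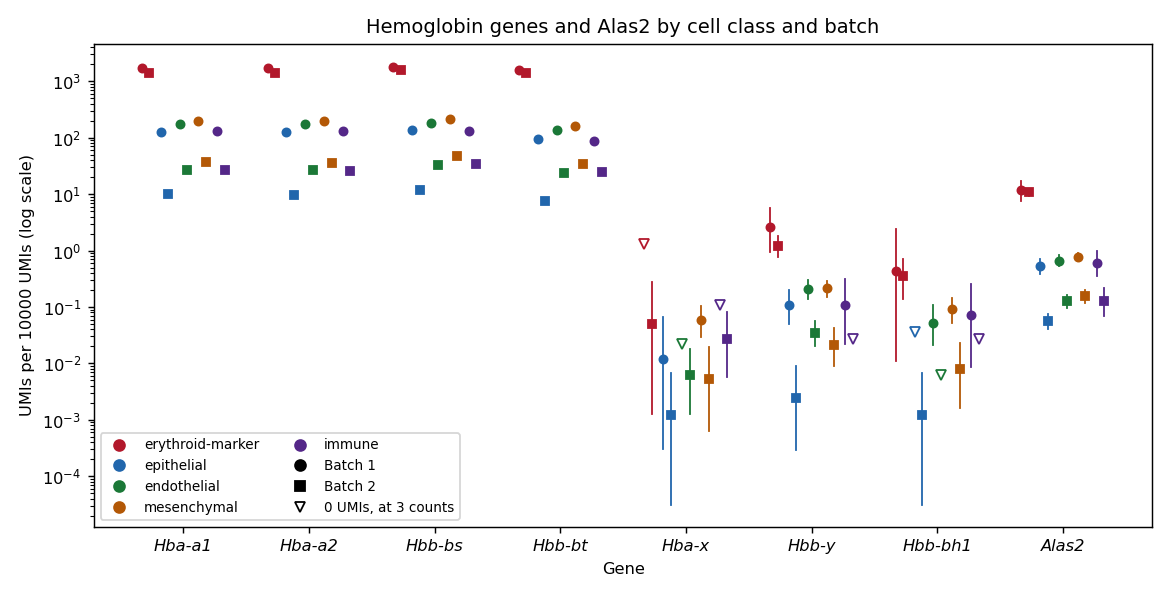
UMIs per 10000 UMIs (y axis, log scale) of the 8 members (x axis) in 5 cell classes (colors) of Batch 1 (circles) and Batch 2 (squares), with exact 95% Poisson intervals and open triangles at the level of 3 counts where no UMI was found. Each later globin and Alas2 is highest in erythroid-marker cells in both batches, and in the other classes the Batch 1 value of the later globins, Alas2 and Hbb-y lies above the Batch 2 value.

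Summed counts of the alpha-type and beta-type genes were close to each other in erythroid-marker cells. Alpha-type over beta-type UMIs were 7893 over 7933 in Batch 1, a ratio of 0.995 (exact 95% interval 0.964 to 1.03), and 56716 over 59603 in Batch 2, a ratio of 0.952 (0.941 to 0.963), with a mean of 0.973 ± 0.0307 (SD, n = 2). The intervals cover counting error only, take UMIs as independent and do not overlap, and no test between the mice was possible with n = 1 in each batch. Around a fixed split with *Hbb-bs*, the variance of *Hba-a1* between these cells was 2.10 and 5.11 times the binomial variance of counting. The intervals are therefore narrower than the spread between cells, and no difference between the batches is read from them. By cell the ratio was 0.889, 0.958, 1.04 and 1.04 in Batch 1, and 0.70 at the lowest, 0.948 at the median and 1.22 at the highest in Batch 2. The cells of Batch 1 all lay inside the range of those of Batch 2. The absolute ratio depends on how the alpha genes are counted, since it was 0.487 when the mean of *Hba-a1* and *Hba-a2* was counted once. A balance of the chains is therefore not shown.

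That setting, added after the values were seen, was computed because the paired alpha genes followed each other more closely than counting allows. Over globin-rich cells, those with at least 20% globin, the variance of *Hba-a1* around a fixed split with *Hba-a2*, in cells with at least 10 UMIs of the pair, was 0.104 times the binomial variance in Batch 1 and 0.122 times in Batch 2. In the first erythroid-marker cell of Batch 1 both genes had 1414 UMIs, and in the highest cell of Batch 2 they had 1920 and 1912. Over all 58 globin-rich cells of Batch 2 the largest difference was 37 UMIs, at a median sum of 1311.5. Independent molecules of each gene would give a value near 1, as *Hbb-bs* against *Hbb-bt* gave (1.00 and 1.03), while *Hba-a1* against *Hbb-bs* gave 9.28 and 9.53. Among cells with under 10% globin the value for the alpha pair was 0.311 and 0.475 and that for the beta pair 0.563 and 0.569. How UMIs of reads that match both genes were assigned was not tested. Globin totals and shares given here count both alpha genes unless stated.

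**Figure D3:**
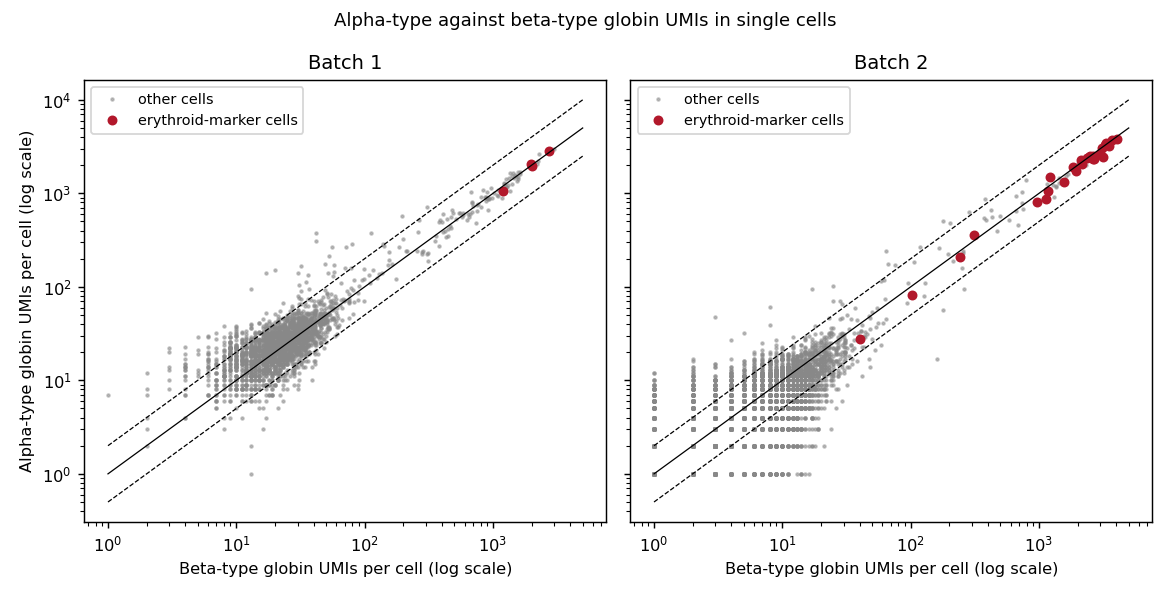
Alpha-type globin UMIs (y axis, log scale) against beta-type globin UMIs (x axis, log scale) in single cells of Batch 1 and Batch 2 with at least 1 UMI of each type, erythroid-marker cells in red and other cells in grey, with lines at a ratio of 1 (solid) and of 2 and 0.5 (dashed). Erythroid-marker cells lie between 0.889 and 1.04 in Batch 1 and between 0.70 and 1.22 in Batch 2, and cells above the upper line with 100 or more globin UMIs are other cells.

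*Hbb-bt* and *Hbb-bs*, the paired beta genes expressed after birth, were not equal. In erythroid-marker cells *Hbb-bt* had 0.887 UMIs for each of *Hbb-bs* in Batch 1 (0.849 to 0.927) and 0.881 in Batch 2 (0.867 to 0.895). Among other cells with under 10% globin the ratio was 0.605 (0.594 to 0.616) and 0.598 (0.586 to 0.609). The ratio moved with the globin UMIs of a cell in both batches. It was 0.543 in Batch 1 cells with 1 to 19 globin UMIs, 0.675 in those with 160 to under 500 and 0.887 in those with 3000 or more, and in Batch 2 it was 0.571, 0.755 and 0.879. This is a description over cells of the same libraries, and whether it follows the number of UMIs or the kind of cell was not tested.

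**Figure D4:**
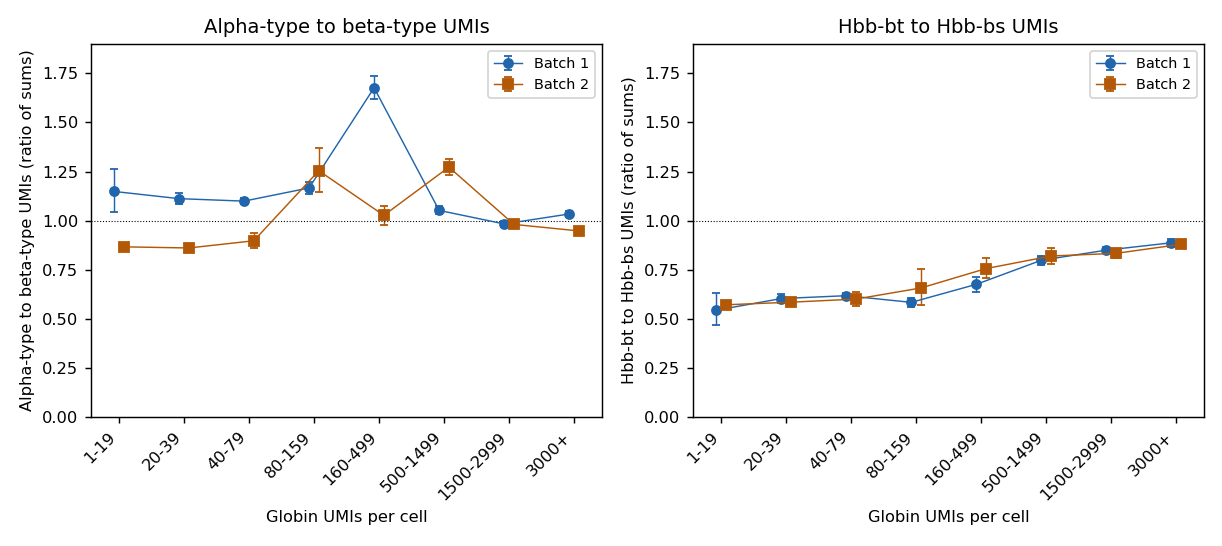
Ratio of alpha-type to beta-type UMIs (left) and of Hbb-bt to Hbb-bs UMIs (right) summed over cells with a given number of globin UMIs (x axis), in Batch 1 (circles) and Batch 2 (squares), with exact 95% binomial intervals. The right panel rises from 0.543 to 0.887 in Batch 1 and from 0.571 to 0.879 in Batch 2, and the left panel has its highest point, 1.68, in Batch 1 cells with 160 to under 500 globin UMIs.

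The embryonic globins were rare. They made up 126 of 307467 globin UMIs in Batch 1 (0.0410%) and 72 of 274727 in Batch 2 (0.0262%). In erythroid-marker cells they made up 7 of 15826 UMIs, 0.0442% (exact 95% interval 0.0178 to 0.0911), and 32 of 116319, 0.0275% (0.0188 to 0.0388), a mean of 0.0359% ± 0.0118 (SD, n = 2). The intervals of the batches overlap. The beta-type genes carried most of them. *Hbb-y*, the embryonic epsilon-like chain, had 87 UMIs in 68 cells of Batch 1 and 51 UMIs in 38 cells of Batch 2, with at most 4 and 3 in a cell, and *Hbb-bh1*, the other embryonic beta-type chain, had 27 and 11 UMIs.

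Most *Hbb-y* and *Hbb-bh1* UMIs were in cells rich in the later globins. Globin-rich cells held 62.1% of the *Hbb-y* UMIs of Batch 1 and 70.6% of those of Batch 2, and 70.4% and 72.7% of the *Hbb-bh1* UMIs. Among erythroid-marker cells, *Hbb-y* was found in 3 of 4 and 15 of 28 and *Hbb-bh1* in 1 and 6. In the class comparison *Hbb-y* was higher in erythroid-marker cells by 6.02 ± 0.58 on the log2 scale (SE, edgeR adjusted p = 1.64e-12). *Hbb-bh1* passed the filter on low values through these cells, at 43.3 and 34.8 CPM there and at most 9.12 CPM in the other classes. Its log2 fold change of 5.98 ± 1.18 is therefore a description, and without the batch as a block its call was lost. The values rest on 6 and 24 UMIs of *Hbb-y* and on 1 and 7 of *Hbb-bh1* in the erythroid-marker cells of Batch 1 and Batch 2.

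*Hba-x*, the embryonic zeta-like alpha chain, did not follow them in Batch 2, and in Batch 1 the difference rests on 1 cell. *Hba-x* had 12 UMIs in Batch 1 and 10 in Batch 2, of which 2 and 1 were in globin-rich cells. In Batch 1, 8 of the 12 were in a single mesenchymal cell with 55 globin UMIs, 10 of them of *Hba-a1*. Without that cell 4 UMIs of *Hba-x* remained, 2 of them in globin-rich cells. In erythroid-marker cells it had 0 of 7893 alpha-type UMIs in Batch 1, which allows a share of up to 0.0380%, and 1 of 56716 in Batch 2. *Hba-x* stayed below the filter and was not tested.

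*Alas2* had 320 UMIs in Batch 1 and 400 in Batch 2. The 4 erythroid-marker cells of Batch 1 had 2, 6, 7 and 12 UMIs, and those of Batch 2 had 0 at the lowest, 7 at the median and 29 at the highest, with at least 1 in 25 of 28. This is 11.7 UMIs per 10000 (exact 95% Poisson interval 7.71 to 17.0) and 10.8 (9.41 to 12.3), a mean of 11.2 ± 0.637 (SD, n = 2), against 0.664 and 0.101 in all other cells. Cells without *Alas2* UMIs in Batch 2 were 3, among them the cell with 68 globin UMIs. Relative to globins, *Alas2* had 1.71 UMIs per 1000 globin UMIs (1.124 to 2.48) in the erythroid-marker cells of Batch 1 and 1.87 (1.63 to 2.13) in those of Batch 2, and 0.910 (0.742 to 1.10) and 1.25 (1.02 to 1.51) in other cells under 10% globin. In neither batch do these intervals, which cover counting error alone, overlap. The other cells are pooled in them. Epithelial cells under 10% globin in Batch 2 alone were at 1.67 (1.20 to 2.28), which overlaps the erythroid-marker interval. Endothelial cells there were at 1.17 (0.798 to 1.65) and immune cells at 1.01 (0.407 to 2.08), which also overlap it. Mesenchymal cells were at 1.06 (0.706 to 1.54), which does not. In Batch 1 the interval of each lung class overlapped that of the erythroid-marker cells.

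At least 1 *Alas2* UMI was found in 7.12% of all Batch 1 cells and 2.71% of all Batch 2 cells. In epithelial cells the shares were 9.18% and 2.81%, at a median of 2179 and 3568 UMIs per cell, and the source of these *Alas2* UMIs was not tested. After each cell was thinned to 600 UMIs, epithelial shares were 0.984% (Batch 1) and 0.412% (Batch 2), against 75% and 42.9% of erythroid-marker cells. The other lung classes lay above the epithelial share at this depth, with 2.35% and 0.818% of endothelial, 3.13% and 0.707% of mesenchymal and 1.91% and 0.835% of immune cells, and these differences were not tested.

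Most genes of heme synthesis were higher in erythroid-marker cells. Of 8 enzymes reported here, 8 were tested, 5 were called higher and 0 lower (2.18% of all genes tested were called higher), and their median log2 fold change was 2.86 against -1.01 over all tested genes. *Alas2* rose by 6.32 ± 0.38 (SE, edgeR adjusted p = 5.16e-21). *Fech*, which inserts iron into protoporphyrin in the last step, rose by 4.59 ± 0.32. *Urod* (uroporphyrinogen decarboxylase), *Cpox* (coproporphyrinogen oxidase) and *Alad* (5-aminolevulinate dehydratase) rose by 3.62 ± 0.35, 2.88 ± 0.49 and 2.78 ± 0.52. *Uros* and *Ppox* had log2 fold changes of 2.85 ± 0.89 (adjusted p = 0.0615) and 2.48 ± 0.76 (adjusted p = 0.0549), which did not pass here but passed with DESeq2 (adjusted p = 0.000553 and 0.000610) and with globins left out of the totals (0.0424 and 0.0342), *Uros* also with library totals and *Ppox* with at least 5 erythroid genes, and *Alas1* had -1.46 ± 0.72 (adjusted p = 0.286).

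The values behind these differ in depth between batches. *Fech* had 11 UMIs in erythroid-marker cells of Batch 1 and 67 in Batch 2, or 477 and 333 CPM, against 21.4 to 44.9 and 15.6 to 29.7 CPM in the 4 other classes. In both batches the erythroid-marker value lay above all other classes. *Alad* lost its call without the batch as a block (adjusted p = 0.0907), with a mitochondrial limit of 5% (0.101) and with Leiden classes (0.174). *Alas1* was called lower with library totals (log2 fold change -2.21, adjusted p = 0.0214) and higher with cells of at least 2 erythroid genes (adjusted p = 0.00273), so no direction can be given for it.

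**Figure D5:**
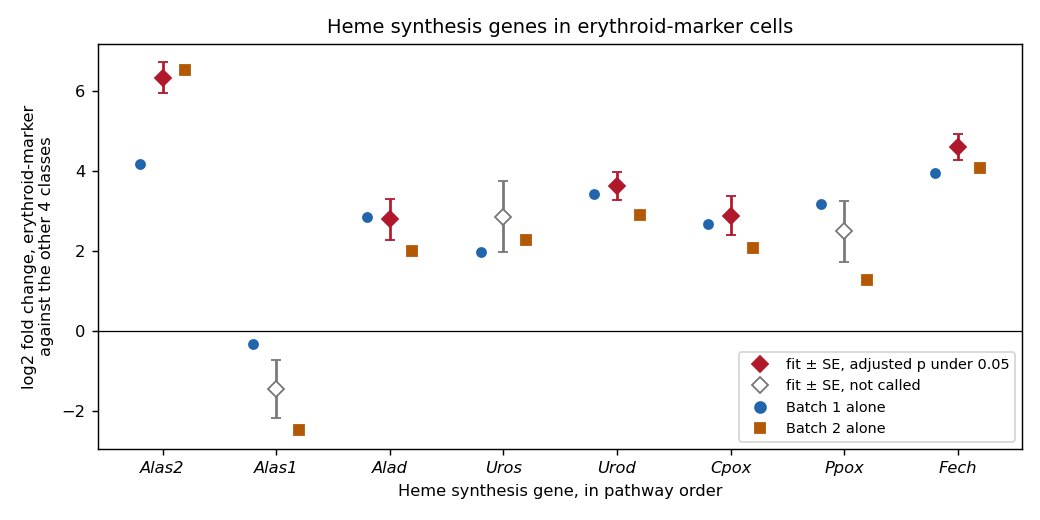
Log2 fold change of 8 heme synthesis genes (x axis, in pathway order) in erythroid-marker cells against the mean of the other 4 classes (y axis), from edgeR (diamonds, ± SE, filled in red where the adjusted p was under 0.05) and in each batch alone from log2 CPM of library totals (circles Batch 1, squares Batch 2). Alas2 is at 6.32 and Fech at 4.59, and Alas1, at -1.46, is the 1 gene below 0.

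Of 15 listed genes of heme and iron transport and turnover 12 were tested, 3 were called higher and 0 lower, where 2.18% of all genes tested were called higher, with a median log2 fold change of 0.16. *Slc25a37* (mitoferrin 1, which brings iron into mitochondria) rose by 5.11 ± 0.33, *Blvrb* (biliverdin reductase B) by 4.26 ± 0.32 and *Tfrc* (the transferrin receptor) by 4.57 ± 0.42 on the log2 scale (SE). *Tfrc* rests on Batch 2, with 50 UMIs there and 0 in the erythroid-marker cells of Batch 1. The ferritin genes *Fth1* and *Ftl1* had log2 fold changes of -0.09 ± 0.55 and -0.10 ± 0.49 (adjusted p = 0.95 and 0.929), and *Hmox1*, heme oxygenase 1, had 0 UMIs in erythroid-marker cells and did not pass (adjusted p = 0.318).

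Of 9 erythroid regulators 8 were tested and 4 were called higher, where 2.18% of all genes tested were. *Nfe2* rose by 5.15 ± 0.70, *Lmo2* by 4.27 ± 0.50 and *Tal1* by 3.91 ± 0.81, the last with 0 UMIs in Batch 1 and 9 in Batch 2, and *Klf1* was part of the rule that chose the cells. *Gata1*, the master factor of red cell genes, had 0 and 3 UMIs there (log2 fold change 4.81 ± 1.79, adjusted p = 0.144). Of 9 other globins 2 were tested. *Hbq1b* (theta) passed the filter through the erythroid-marker cells, so its log2 fold change of 8.70 ± 0.85, with 3 and 23 UMIs, is a description. *Cygb* (cytoglobin) had 0 UMIs in erythroid-marker cells of both batches (edgeR adjusted p = 0.433). The 6 genes outside the members with the highest log2 fold change among those at 50 CPM or more in both batches were *Hemgn*, *Cldn13*, *Mir451*, *Trim10*, *Hbq1b* and *Tspo2*. Only *Mir451* (9.76 ± 1.25) and *Hbq1b* were not in the list that chose the cells, and *Mir451* also passed the filter through these cells.

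The globin level of cells without 3 erythroid genes differed between the batches. It was 661 UMIs per 10000 in Batch 1 and 87.9 in Batch 2, with a median per cell of 47 and 11 globin UMIs, and the 1st to 3rd quartiles were 33 to 65 and 6 to 18. Without cells at 10% globin or more it was 280 and 48.1. After thinning to 600 UMIs per cell it was 540 and 99.6, and with the mean of *Hba-a1* and *Hba-a2* counted once 490 and 66.5. Alpha-type over beta-type UMIs in the cells under 10% were 1.123 (1.11 to 1.14) in Batch 1 and 0.914 (0.902 to 0.926) in Batch 2, so the ratio lay above that of the erythroid-marker cells in Batch 1 and below it in Batch 2.

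This level was spread over all classes. The median number of globin UMIs per cell was 51 in epithelial, 48 in endothelial, 45 in mesenchymal and 46 in immune cells of Batch 1, and 11 in each of the 4 classes of Batch 2. It moved less than depth did. Among cells under 10% globin, from the lowest to the highest quartile group of non-globin UMIs the median depth rose 3.28 times and the median of globin UMIs 1.79 times in Batch 1, and 4.96 and 1.88 times in Batch 2. The share of UMIs from globins therefore fell from 416 to 204 per 10000 in Batch 1 and from 105 to 31.4 in Batch 2. Epithelial cells were the deepest class, with a median of 2062 non-globin UMIs against 1215 to 1317 in the other 3 classes of Batch 1.

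Among the 4 lung classes, edgeR's test of any difference called 0 of the 7 members tested, with adjusted p-values of 0.0501 to 0.228, where 59.3% of 12401 genes were called. At an unadjusted edgeR p under 0.05, 4 of the 7 passed, where 7921 of the 12401 genes did. DESeq2 called 0 of the members, where it called 6753 of the 12401 genes. Each class was also compared with the mean of the other 3. *Hba-a1*, *Hba-a2*, *Hbb-bs* and *Hbb-bt* were lower in epithelial cells, by log2 fold changes of -0.72 ± 0.22, -0.74 ± 0.22, -0.74 ± 0.25 and -0.83 ± 0.28 (SE, edgeR adjusted p = 0.0283, 0.0264, 0.0400 and 0.0411), where 15.3% of all genes were called lower. The size rests on Batch 2, with differences of -1.84 to -1.57 in log2 CPM there and -0.39 to -0.34 in Batch 1, where *Hbb-bs* and *Hbb-bt* were at 135 and 96.2 per 10000 in epithelial and at 130 and 88.3 in immune cells. The calls were lost without the batch as a block (log2 fold changes of -0.36 to -0.31, adjusted p = 0.844 to 0.875) and with Leiden classes (-0.49 to -0.47, 0.201 to 0.293). They were also lost with a mitochondrial limit of 5%, at larger log2 fold changes of -1.13 to -1.0 (0.0551 to 0.0688), and the depth of epithelial cells moves with them, whose part was not tested. No member was called in endothelial cells, where 15.6% of all genes were called higher and 11.2% lower. The same held in immune cells, where 16.3% were called higher and 16.1% lower. In mesenchymal cells none was called either, where 16.8% of all genes were called higher and 13.2% lower, but the same 4 genes were called higher with library totals, without a gene filter and without a mitochondrial limit.

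Many globin-rich cells had no erythroid marker, more so in Batch 1, but the batches were not tested against each other. Globin-rich cells had a median of 1251 non-globin UMIs in Batch 1 and 1788.5 in Batch 2, and the part of this depth was not tested. Of the 104 in Batch 1, 70 had no UMI of any erythroid list gene, and of the 58 in Batch 2, 21 had none, while 4 and 26 had 3 or more. These 70 cells held a median of 1168 globin UMIs beside 1154 non-globin UMIs, against 1299.5 non-globin UMIs in all other cells, and 69 of them had at least 2 marker genes of a lung class. Of the 21 in Batch 2, 21 had at least 2. Of all cells outside the erythroid-marker class, 2363 of 2384 in Batch 1 and 5540 of 5587 in Batch 2 did too. These counts therefore do not set the globin-rich cells apart. In the 70 and 21 cells the alpha-type to beta-type ratio was 1.06 (1.04 to 1.07) and 1.02 (1.00 to 1.04). *Alas2* was at 0.896 (0.719 to 1.10) and 0.920 (0.637 to 1.29) per 1000 globin UMIs in them, below the 1.71 and 1.87 of erythroid-marker cells, with intervals that do not overlap. A pair of Leiden clusters made without the members held many globin-rich cells. In Batch 1 a cluster of 41 cells held 40 globin-rich and 3 erythroid-marker cells, and in Batch 2 a cluster of 28 held 28 and 23.

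A few cells had far more alpha-type than beta-type UMIs. Among the 228 cells of Batch 1 with at least 100 globin UMIs, 31 had a ratio over 2 and none had one under 0.5, and among the 90 of Batch 2, 10 had one over 2 and 3 one under 0.5. Those with a ratio over 2 in Batch 1 were 14 of 80 endothelial, 9 of 97 mesenchymal, 5 of 30 epithelial and 3 of 12 immune cells at that level. In Batch 2 they were 6 of 21 endothelial, 2 of 24 mesenchymal, 2 of 12 epithelial and 0 of 4 immune cells. None was an erythroid-marker cell. The highest ratio was 9.05, in an endothelial cell of Batch 1 with 190 UMIs of *Hba-a1*, 190 of *Hba-a2*, 24 of *Hbb-bs* and 18 of *Hbb-bt*. In Batch 2 the highest was 5.59, in an endothelial cell with 49, 46, 12 and 5. The 3 cells with few alpha-type UMIs were mesenchymal, and the lowest ratio, 0.107, came from 8, 9, 84 and 75 UMIs of the same 4 genes. The alpha-high cells held 3 *Alas2* UMIs in 8230 globin UMIs in Batch 1 and 2 in 4946 in Batch 2. The cells with at least 100 globin UMIs and a ratio from 0.5 to 2 held 221 in 199335 and 302 in 193314. These limits were set after the values were seen, and no test was made.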

How the data were processed

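The authors aligned the Drop-seq reads to mm10 with Bowtie2 2.2.7 through the Drop-seq tools and deposited, for each of the 2 mice, a count table of unique UMIs per gene and cell barcode, with no normalization. Reads that match several places are reported at 1 place under their setting; how similar UMIs were merged is not given in the sources used here. Cells over 10% mitochondrial UMIs were left out (1 of 2389 and 1940 of 7555). No doublet caller was run. Some genes of the lists are not reported here.

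The members, gene lists and limits were chosen with earlier results of these data known. The named genes are the members, those carrying a result in the pathway lists and the 6 other genes of highest log2 fold change at 50 CPM or more. Erythroid-marker cells had at least 3 of 16 red cell genes, and other cells took the class with most of its 15 markers, at least 2. Counts were summed by class and batch and tested with edgeR 4.0.16 (TMM, filterByExpr, quasi-likelihood F-test, Benjamini-Hochberg, adjusted p under 0.05) in R 4.3.3. The batch was a replicate block since sums of 1 batch came from the same mouse, and deviations of classes correlated at 0.203 to 0.435 within batches (6 pairs of classes). DESeq2 1.42.0, other scalings, filters, marker limits and Leiden clusters were alternatives. The test was checked on simulated counts for the erythroid comparison with 200 of 11668 genes changed, of which 97.5% of those at log2 fold changes of 4 or more were found, with 2 wrong among 124 calls. The simulated counts had a common dispersion for all genes and no difference between batches. The share found among smaller or negative changes is not given, so the check does not cover them. Shares of cells were compared after thinning to 600 UMIs per cell. Intervals are 95%, exact Poisson or binomial, and cover counting error only, and a count of 0 was read as up to 3 counts. Positions and coding sequences are from GENCODE on GRCm38.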

Additional observations from a re-analysis of the deposited data

Results flagged for a closer look

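Cells over the mitochondrial limit, which entered no comparison above other than the alternative without that limit, carried transcripts of the members. In the 1940 such cells of Batch 2 there were 28 *Alas2* UMIs and 6 UMIs of the embryonic globins, above the 3 counts that an absence allows. Of these cells 2 had at least 3 erythroid genes and 2 (0.103%) were globin-rich, against 1.03% of the cells within the limit, and their globin level was 61.0 UMIs per 10000.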

How the results depend on the processing

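Of the values with no test, the alpha-type to beta-type ratio (0.973) and the embryonic share (0.0359%) moved by less than the SD between batches in most alternatives. The globin level outside erythroid-marker cells, a mean of 375 UMIs per 10000, had an SD of 406 between batches, so no lower value could count as moved. It was 164 in cells with globin under 10%, 176 as a median over cells and 278 with the alpha genes counted once. *Alas2* in erythroid-marker cells, at 11.2 per 10000, was 5.83 with at least 2 erythroid genes, 14.0 with at least 5, 12.2 with a mitochondrial limit of 5%, 10.3 with Leiden clusters, 16.1 after thinning to 600 UMIs and 7.62 in cells with at least 20% globin. The embryonic share was 0.0239% with at least 5 erythroid genes and 0.0792% after thinning, and the chain ratio was 0.487 with the alpha genes counted once. The settings with 20% globin, with globin under 10% and with the alpha genes counted once were chosen after seeing the data. Leaving out either batch gave 0.952 to 0.995 for the ratio, 0.0275% to 0.0442% for the embryonic share, 87.9 to 661 globin UMIs per 10000 and 10.8 to 11.7 for *Alas2*.

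Genes called in erythroid-marker cells numbered 339, against 2527 with library totals, 818 with at least 2 erythroid genes and 167 without the replicate block. The cause was not tested. Without the block, 5399 in place of 7352 genes differed among the 4 lung classes. Beside the calls of *Hbb-bh1*, *Alad* and the epithelial globins given above, *Alas2* was called lower in epithelial cells with library totals, and its log2 fold change in mesenchymal cells turned to -0.083 with Leiden classes. Depth limits the embryonic globins and Batch 1, which has 4 erythroid-marker cells.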
